A study of Mus musculus with 8 samples.

Results

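The collagen genes of the mouse heart were examined as a family: every protein-coding gene whose symbol is Col, a number, a and a number, of which there were 44 among 55573 genes counted. By class, 11 encode fibrillar chains, 8 encode chains of basement membranes (type IV, with the multiplexins Col15a1 and Col18a1) and 25 encode the other types. RNA sequencing had been run on heart tissue of male C57BLKS/J mice at 24 weeks of age, in 4 libraries of db/db and 4 of db/m genotype. The db/db mouse is homozygous for a mutation of the leptin receptor gene Lepr, carried in every cell from conception, and becomes obese and diabetic, while db/m mice carry 1 mutant copy. The question was how collagen mRNA compares between diabetic and non-diabetic hearts, and how much of the comparison rests on db/m libraries with adipocyte counts.

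Collagens are secreted proteins whose alpha chains wind into helical trimers. The fibrillar types I, III and V form the cables that bear tension between cardiac muscle bundles and are made mostly by fibroblasts. Type IV collagen forms the sheet-like network under endothelium and around each cardiomyocyte, and the remaining types anchor, coat or link these structures. Collagen accumulation is a known feature of cardiac fibrosis.

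Total counts ranged from 19541757 to 22249911 per library. All 7 cardiomyocyte markers were present in every library, with a summed level of 28300 to 34700 CPM in db/db and 27900 to 32900 CPM in db/m hearts (CPM, counts scaled to a common library size). The db allele alters splicing of Lepr, so a count summed over the gene does not check the genotype labels. Lepr averaged 5.76 ± 1.36 CPM in db/db and 10.7 ± 7.02 CPM in db/m (SD, n = 4 each), with an adjusted p of 0.383 by edgeR's quasi-likelihood test. Whether the libraries of a genotype stem from different animals is not stated in the labels, and the p-values therefore reflect only the variation among these libraries, part of which may be technical.

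Before the collagens are described, 2 db/m libraries have to be set apart. Adipoq, the adipocyte hormone adiponectin, had 2, 1, 0 and 0 counts in db/db replicates 1 to 4, against 1082, 4, 2243 and 10 in db/m replicates 1 to 4. In db/m replicates 1 and 3, all 8 adipocyte markers and all 6 atrial cardiomyocyte markers stood above the other 6 libraries. The summed adipocyte level was 24.5 to 37.4 CPM in db/db and 27.4 to 909 CPM in db/m, and the summed atrial level 24.9 to 118 CPM in db/db and 16.0 to 3890 CPM in db/m. Ucp1 and Retn among the adipocyte markers and Sln among the atrial ones were at 0 in all db/db libraries. Markers of valve, tendon and cartilage summed to 17.9 to 20.1 CPM in db/db and 14.8 to 75.8 CPM in db/m, with Tnmd and Matn1 at 0 in db/db. Those of activated fibroblasts summed to 99.3 to 172 CPM in db/db and 516, 204, 499 and 184 CPM in db/m replicates 1 to 4. Comp, whose values are given further on, is counted in both of these lists, so their sums are not independent. By this sum, db/m replicates 2 and 4 were also above every db/db library, but single markers differed in direction. Without db/m replicates 1 and 3, 3 of the 5 tested activated fibroblast markers had a fold change above 0 and 2 below. Acta2 is counted both in this list and among the smooth muscle and pericyte markers, and both lists had a lowest log2 fold change of -1.11 there. Db/m replicate 3 also gained counts with gene length, by 0.25 on the log2 scale per doubling of length, where the other 7 libraries ran from -0.08 to 1.38e-05. The median length of the collagens tested was 7242.5 bases, against 3659 over all genes tested. The part of this tissue admixture and of the length trend in the collagen differences was not tested, and the main comparisons are given with and without db/m replicates 1 and 3. In whole tissue, fewer cells of a type and less RNA per cell cannot be told apart.

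Of the 44 collagens, 30 passed the filter on low counts, 8 fibrillar, 8 of basement membranes and 14 others. No collagen passed an adjusted p of 0.05 in the 8 libraries (edgeR quasi-likelihood test with Benjamini-Hochberg adjustment, 0 of 30), and over all genes 1 of 17411 did (0.00574%). At an unadjusted p under 0.05, 7 collagens were lower in db/db (Col3a1, Col5a2, Col4a1, Col4a4, Col4a6, Col6a3 and Col12a1), where 7.84% of all genes were, and 0 were higher, where 5.12% were. DESeq2 called 1 collagen, Col4a4, as lower in db/db (2.17% of all genes called in either direction), and limma-voom called 0 (0.58%). The fold change was below 0 for 27 of the 30, against 52.3% of all genes. The median log2 fold change was -0.46, beside -0.02 over all genes. With each library's length trend removed, 6 collagens were lower at an unadjusted p under 0.05 (7.64% of all genes) and 0 higher (6.29%), and the median was -0.36.

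**Figure D1:**
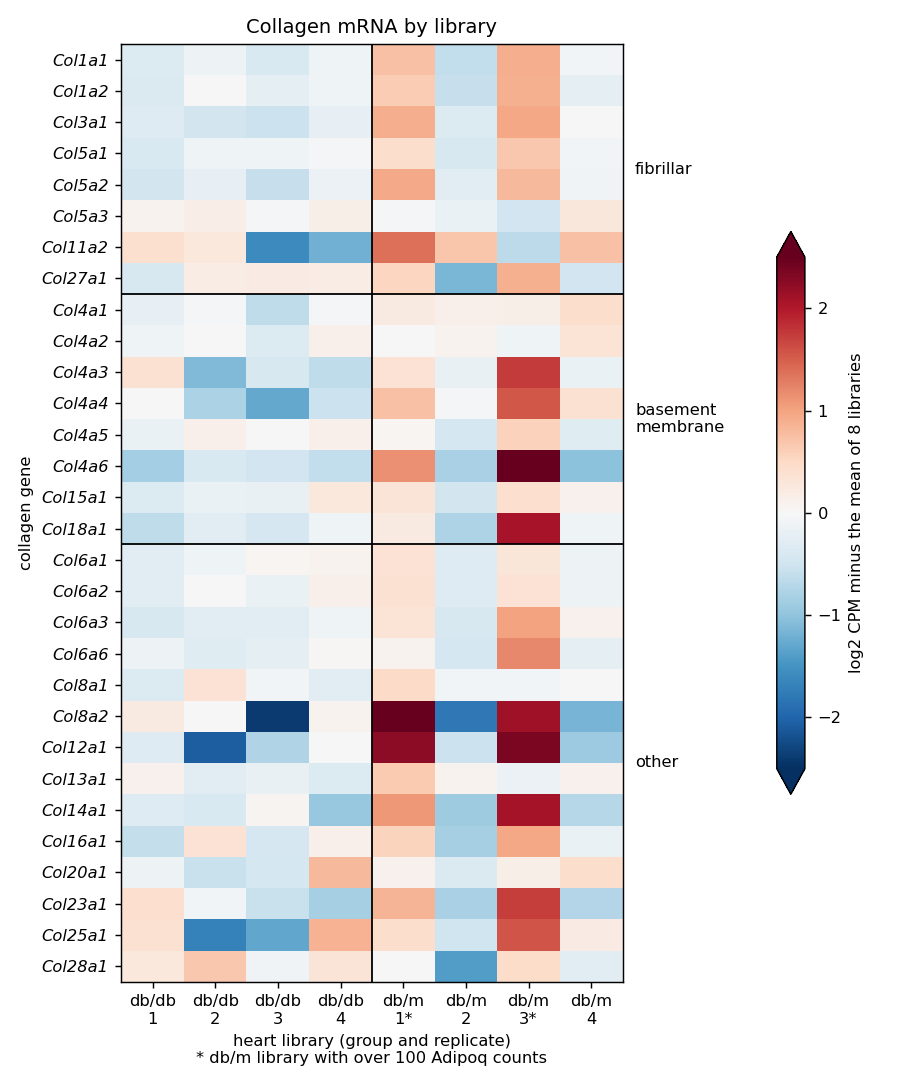
Heat map of the 30 tested collagens (rows, by class) in 8 heart libraries (columns, db/db left of db/m), with colour for log2 CPM minus the gene's mean over the libraries. The red columns are db/m replicates 1 and 3, starred for Adipoq; in 19 of the 30 genes both lie above the other 6 libraries.

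Most of this tilt lay in the starred libraries of the heat map. Both db/m replicates 1 and 3 were above all other 6 libraries for 19 of the 30 collagens, against 15% of all genes. That held for 6 of 8 fibrillar chains, 4 of 8 basement membrane chains and 9 of 14 others. Collagen genes together took 0.145%, 0.169%, 0.142% and 0.176% of counts in db/db replicates 1 to 4, against 0.253%, 0.159%, 0.294% and 0.206% in db/m replicates 1 to 4. The SD of log2 CPM among replicates had a median of 0.25 in db/db and 0.69 in db/m over the tested collagens, beside 0.21 in db/db and 0.35 in db/m over all genes.

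Without these libraries, 4 db/db and 2 db/m libraries remained and 31 collagens passed the filter. The 3 tools edgeR, DESeq2 and limma-voom each called 0 of the 31, against 0.256%, 1.87% and 0.49% of all 17971 genes. The fold change was above 0 for 20 of them and below 0 for 11, where 49.6% of all genes were below 0, and the median was 0.06 against 0.00 for all genes tested. At an unadjusted p under 0.05, Col4a1, Col4a2 and Col4a4 were lower in db/db (5.04% of all genes) and Col4a5, Col27a1 and Col28a1 higher (5.63%). Groups did not overlap, with db/db lower, for Col4a1 and Col11a2 (10.9% of all genes), and with db/db higher for Col4a5, Col27a1 and Col28a1 (10.4%). By class, the medians in 8 and in 6 libraries were -0.53 and 0.03 for fibrillar chains, -0.75 and -0.06 for basement membrane chains, and -0.44 and 0.17 for the others. Leaving out db/m replicate 3 alone gave -0.27, -0.30 and -0.18 for the same classes, and leaving out db/m replicate 1 alone gave -0.38, -0.79 and -0.39. In the same 6 libraries, all 8 fibroblast markers had a fold change above 0, with a median of 0.50 and a sum of 2270 to 3790 CPM in db/db and 2310 and 2318 CPM in db/m replicates 2 and 4, and 5 were at an unadjusted p under 0.05. Of the 8, edgeR and limma-voom called 0 and DESeq2 called 2. In all 8 libraries, 3 of these markers had a fold change above 0 and 5 below, with a median of -0.06. Of 5 tested markers of activated fibroblasts, 3 were above 0 and 2 below in the 6 libraries, from -1.11 to 0.47. Of those 5, edgeR called 0, and DESeq2 and limma-voom called 1 each.

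**Figure D2:**
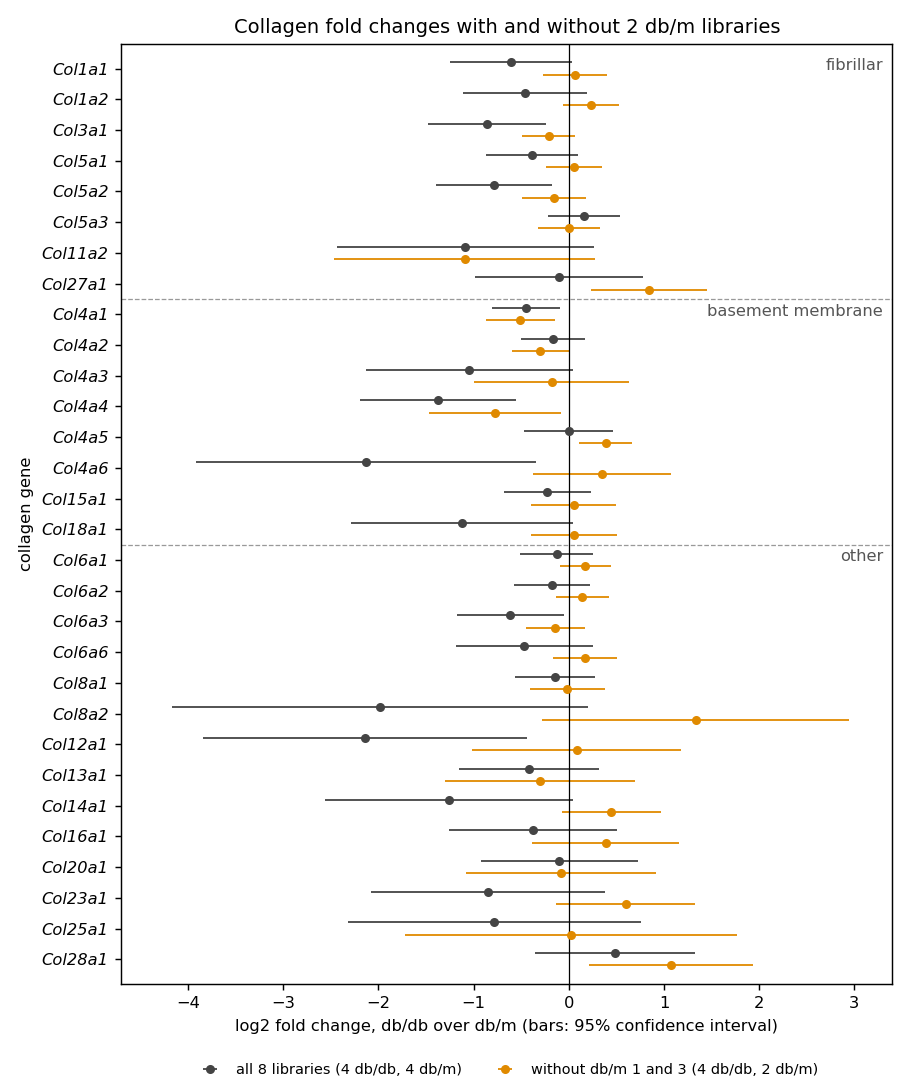
Log2 fold change of db/db over db/m (horizontal axis) with 95% confidence intervals for the 30 tested collagens by class, from all 8 libraries (grey) and without db/m replicates 1 and 3 (orange). Most grey points lie left of 0 and most orange points near it; Col4a1 stays at about the same place, with -0.45 and -0.51.

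The collagens with the highest level per length were the type IV pair. Col4a2 averaged 50.1 ± 6.92 CPM per kb in db/db and 56.1 ± 7.61 CPM per kb in db/m, and Col4a1 48.6 ± 8.70 CPM per kb in db/db and 66.4 ± 6.66 CPM per kb in db/m (SD, n = 4 each). Next in db/db came Col6a1, Col15a1 and Col6a2, with means of 25.95, 18.0 and 14.8 CPM per kb. Col1a1 with 10.8 ± 1.06 and Col3a1 with 10.6 ± 1.097 CPM per kb in db/db did not differ beyond their spread. These levels depend on the deposited lengths, 6563 bases for Col1a1 and 9816 for Col3a1. Before that division the db/db means were 70.7 ± 6.97 CPM for Col1a1 and 104 ± 10.8 CPM for Col3a1. The 2 type IV genes lie head to head on chromosome 8 and share a promoter region, so their sequences are shown, with those of the fibrillar genes Col3a1 and Col1a2, whose levels are set against each other further on. Of the 44 collagens, 35 had a window in the RefSeq promoter table (GRCm38.p6, the assembly also called mm10), each from 250 bases before to 50 after the annotated start, read 5′ to 3′ on the gene's strand. Capitals mark 3 promoter motifs, each searched on both strands: the box spelled CCAAT, the GC box spelled GGGCGG, and the TATA box spelled TATAAA.
Col4a1, chr8:11312777-11313076, minus strand: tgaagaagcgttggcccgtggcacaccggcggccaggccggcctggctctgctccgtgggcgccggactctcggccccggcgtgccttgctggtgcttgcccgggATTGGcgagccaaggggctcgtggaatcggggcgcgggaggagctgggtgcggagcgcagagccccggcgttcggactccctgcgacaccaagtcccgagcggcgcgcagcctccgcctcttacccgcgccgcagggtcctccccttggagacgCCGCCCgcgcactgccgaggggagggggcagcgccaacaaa
Col4a2, chr8:11312555-11312854, plus strand: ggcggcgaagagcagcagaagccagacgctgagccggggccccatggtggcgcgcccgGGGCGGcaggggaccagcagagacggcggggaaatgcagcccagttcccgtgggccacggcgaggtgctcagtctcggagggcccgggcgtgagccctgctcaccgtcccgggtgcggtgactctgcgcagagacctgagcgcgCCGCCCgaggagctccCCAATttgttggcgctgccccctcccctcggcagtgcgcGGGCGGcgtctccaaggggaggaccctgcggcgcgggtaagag
Col3a1, chr1:45311288-45311587, plus strand: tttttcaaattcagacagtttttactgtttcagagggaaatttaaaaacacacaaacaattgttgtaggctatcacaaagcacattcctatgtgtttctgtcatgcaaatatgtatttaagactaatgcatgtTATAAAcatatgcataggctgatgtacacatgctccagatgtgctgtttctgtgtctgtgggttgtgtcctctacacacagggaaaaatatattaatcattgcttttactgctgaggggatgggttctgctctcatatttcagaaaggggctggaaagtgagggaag
Col1a2, chr6:4505368-4505667, plus strand: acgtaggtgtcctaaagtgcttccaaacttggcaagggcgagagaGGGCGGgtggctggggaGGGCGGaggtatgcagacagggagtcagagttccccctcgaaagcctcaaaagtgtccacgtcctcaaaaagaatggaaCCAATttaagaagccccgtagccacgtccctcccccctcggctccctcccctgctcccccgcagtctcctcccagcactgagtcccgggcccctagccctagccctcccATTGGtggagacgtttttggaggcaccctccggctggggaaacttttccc

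In the deposited coordinates (mm10), Col4a1 runs from 11198423 to 11312826 on the minus strand and Col4a2 from 11312805 to 11449287 on the plus strand, so that 22 exon bases overlap and their windows share 78 bases. The RefSeq start of Col1a2 lies 804 bases inside the deposited start. CCAAT was present in the windows of Col4a1, Col4a2 and Col1a2 and in 37.4% of all 32544 windows in the table. GGGCGG was present in the same 3 genes and in 35.9% of all windows. The Col4a1 match and the last Col4a2 match are the same bases of the shared stretch, printed on opposite strands. TATAAA, found in Col3a1 alone among the 4 windows, occurred in 13.6% of all. Within each of the 4 windows none of these motifs overlapped another, and a match is a string of letters, not a measured site.

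Among the fibrillar chains, type I is the main tension-bearing fibre. Col1a1, the alpha 1 chain, had 65.8, 75.8, 63.6 and 77.4 CPM in db/db replicates 1 to 4, against 139, 54.6, 156 and 80.0 CPM in db/m replicates 1 to 4. The db/db values lay between those of db/m replicates 2 and 4, and db/m replicates 1 and 3 stood far above. The log2 fold change was -0.60 (SE 0.29, adjusted p = 0.404 by edgeR) in 8 libraries and 0.06 (95% interval -0.27 to 0.40) without the high pair. Col1a2, which supplies the alpha 2 chain of the same trimer, ran from 82.4 to 107 CPM in db/db and from 70.6 to 196 CPM in db/m, with log2 fold changes of -0.46 and 0.24 in 8 and 6 libraries.

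Type III collagen, encoded by Col3a1 alone, forms thinner and more compliant fibrils with type I. Col3a1 had 109, 97.8, 93.6 and 117 CPM in db/db replicates 1 to 4, against 252, 106, 265 and 134 CPM in db/m replicates 1 to 4. The groups overlapped only through db/m replicate 2, and db/m replicates 1 and 3 were again far above. Its log2 fold change was -0.86 (SE 0.28, unadjusted p = 0.0111, adjusted p = 0.297 by edgeR) in 8 libraries and -0.21 (95% interval -0.49 to 0.07) in 6.

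Type V chains start fibril assembly and set fibril width. Col5a2 followed Col3a1 with -0.78 (SE 0.28) and -0.15 in 8 and 6 libraries, and Col5a1 had -0.38 and 0.05. Col5a3, in contrast, had 20.8, 21.8, 19.0 and 21.7 CPM in db/db replicates 1 to 4, against 19.2, 17.5, 14.0 and 23.8 CPM in db/m replicates 1 to 4. Its groups overlapped, with a log2 fold change of 0.16 (SE 0.17), and db/m replicate 3 was here the lowest library, not the highest.

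Col27a1, a fibrillar collagen known from cartilage, had 4.74, 7.13, 7.32 and 7.20 CPM in db/db replicates 1 to 4, against 9.23, 2.80, 11.7 and 4.51 CPM in db/m replicates 1 to 4. All db/db libraries fell between the db/m libraries, above replicates 2 and 4 and below replicates 1 and 3. Its fold change was -0.10 (SE 0.40) on the log2 scale in 8 libraries and 0.85 (95% interval 0.24 to 1.45, unadjusted p = 0.0106, adjusted p = 0.272 by edgeR) in 6. Col11a2, which joins cartilage fibrils, was low, with 0.230 to 1.19 CPM in db/db and 0.538 to 2.46 CPM in db/m. Its log2 fold change was -1.09 (SE 0.61, adjusted p = 0.448 by edgeR) in 8 libraries and -1.09 (95% interval -2.46 to 0.28) in 6.

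**Figure D3:**
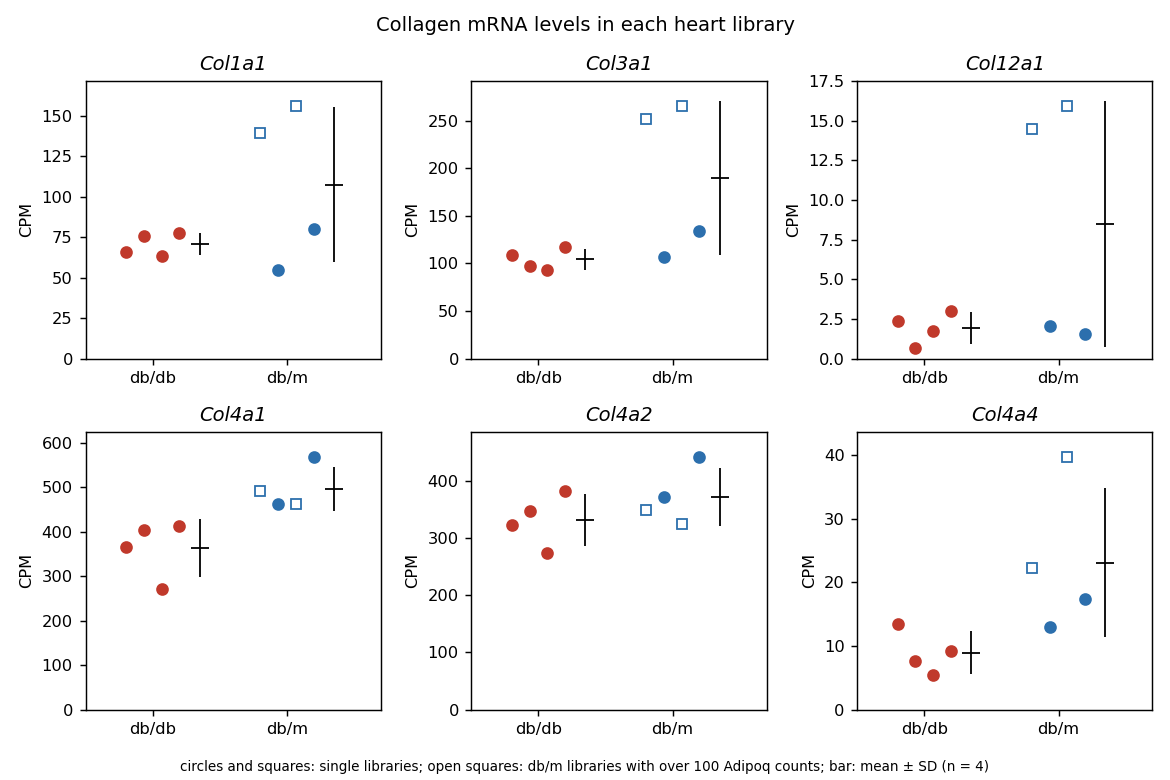
CPM of 6 collagens in each library (points, db/db left of db/m), with the mean and SD of 4 libraries beside them and open squares for db/m replicates 1 and 3. For Col1a1, Col3a1 and Col12a1 the open squares stand apart from all other points, while for Col4a1 the 4 db/m libraries, 461 to 568 CPM, all lie above the 4 db/db libraries, 271 to 412 CPM.

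In the basement membrane class, Col4a1 was the single tested collagen of 30 whose groups did not overlap (0 of 30 higher in db/db). Over all genes, 4.61% were separated with db/db lower and 5.04% with db/db higher. Col4a1, which contributes 2 of the chains in the common type IV trimer, had 365, 404, 271 and 412 CPM in db/db replicates 1 to 4, against 491, 461, 463 and 568 CPM in db/m replicates 1 to 4. Every db/db library was below every db/m library, and the db/m replicates with Adipoq counts were not the highest. The log2 fold change was -0.45 (SE 0.16, unadjusted p = 0.0193, adjusted p = 0.323 by edgeR) in 8 libraries, between -0.51 and -0.33 when single libraries were left out, and -0.51 (95% interval -0.87 to -0.15, adjusted p = 0.270) without db/m replicates 1 and 3. The difference therefore did not pass the threshold in either set of libraries.

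Col4a2, its partner chain, had 323, 347, 274 and 383 CPM in db/db replicates 1 to 4, against 349, 371, 324 and 441 CPM in db/m replicates 1 to 4. The groups overlapped, with the lowest library in db/db and the highest in db/m. Its log2 fold change was -0.16 (SE 0.15, adjusted p = 0.621 by edgeR) in 8 libraries and -0.30 (95% interval -0.60 to -0.0002) in 6. The 7 endothelial markers summed to 1750 to 2330 CPM in db/db and 1670 to 2020 CPM in db/m. Within that list Tie1 and Tek, receptor kinases of endothelium, were separated with db/db lower, at log2 fold changes of -0.30 and -0.39 (adjusted p = 0.354 and 0.349 by edgeR), while Fabp4, a fatty acid binding protein of capillary endothelium, had 0.61 (SE 0.25, unadjusted p = 0.0347, adjusted p = 0.358 by edgeR). The other 4 markers, Pecam1, Cdh5, Kdr and Emcn, had -0.19, 0.10, 0.03 and -0.12, and Fabp4 and these 4 had overlapping groups. In 6 libraries, 1 of the 7 endothelial markers had a fold change above 0 and 6 below (49.6% of all genes below), with a median of -0.14. There 2 of the 7 were separated with db/db lower (10.9% of all genes) and 0 with db/db higher (10.4%). The part of endothelial content in the Col4a1 values was not tested.

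The Col4a3, Col4a4 and Col4a5 chains form a separate network known from kidney, lung and eye. Col4a4 had 13.5, 7.649, 5.435 and 9.18 CPM in db/db replicates 1 to 4, against 22.3, 12.9, 39.6 and 17.4 CPM in db/m replicates 1 to 4. Db/db replicate 1 overlapped db/m replicate 2, and db/m replicate 3 was the highest. The log2 fold change was -1.37 (SE 0.37, unadjusted p = 0.00389, adjusted p = 0.238 by edgeR), the smallest p among the collagens, and -0.77 (95% interval -1.47 to -0.08) in 6 libraries. DESeq2 called it in 8 libraries (adjusted p = 0.0209) and in neither set did limma-voom.

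Col4a3, head to head with Col4a4 on chromosome 1 with 72 bases between the deposited starts, had 5.38, 1.88, 3.09 and 2.62 CPM in db/db replicates 1 to 4, against 5.32, 3.63, 14.0 and 3.66 CPM in db/m replicates 1 to 4. Its groups overlapped, db/m replicate 3 stood apart, and 563 of its exon bases also belong to an opposite-strand transcript with 12 counts in all. Col4a5 had a log2 fold change of 0.00 (SE 0.21) in 8 libraries. In 6 libraries it was 0.39 (95% interval 0.10 to 0.67, adjusted p = 0.282 by edgeR), with 26.7 to 32.8 CPM in db/db above 22.1 and 24.3 CPM in db/m replicates 2 and 4. Col4a6, found in smooth muscle basement membranes, had 1.89 to 2.68 CPM in db/db and 7.83, 1.96, 29.3 and 1.66 CPM in db/m replicates 1 to 4. Its log2 fold change of -2.13 (SE 0.80) became 0.35 in 6 libraries. Myh11, smooth muscle myosin, had 47.3 to 78.1 CPM in db/db and 81.7, 62.2, 381 and 70.5 CPM in db/m replicates 1 to 4. It is 1 of 8 smooth muscle and pericyte markers, and for 4 of the 8 both db/m replicates 1 and 3 were above the other 6 libraries. The whole list summed to 3990 to 4520 CPM in db/db and 3771, 4174, 3838 and 3996 CPM in db/m replicates 1 to 4, with no member at 0. That sum was lowest in db/m replicates 1 and 3, where Col4a6 was highest.

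The multiplexins link basement membranes to the matrix beyond, and the Col18a1 product is the source of endostatin. Col15a1 had 95.3 to 146 CPM in db/db and 88.3 to 162 CPM in db/m, with a log2 fold change of -0.22 (SE 0.20). Col18a1 had 11.6, 15.1, 13.6 and 16.9 CPM in db/db replicates 1 to 4, against 21.2, 10.7, 76.0 and 16.8 CPM in db/m replicates 1 to 4. A single library, db/m replicate 3, set its log2 fold change: -1.12 (SE 0.52) with it and -0.17 without it.

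Type VI collagen builds beaded filaments around cells. Col6a1 and Col6a2, the 2 chains most abundant per length, had log2 fold changes of -0.13 and -0.17 in 8 libraries and 0.17 and 0.14 in 6, each with overlapping groups. Col6a3, the long chain that completes the trimer, had 57.7, 62.5, 63.0 and 71.0 CPM in db/db replicates 1 to 4, against 96.8, 57.6, 153 and 81.8 CPM in db/m replicates 1 to 4. Only db/m replicate 2 was not above the db/db libraries. On the log2 scale the fold change was -0.61 (SE 0.25, adjusted p = 0.359 by edgeR) in 8 libraries and -0.14 in 6. Col6a6, a chain that can replace it, had -0.47 and 0.17.

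Fibril-associated collagens sit on the surface of type I fibrils. Col12a1, found in tendon and ligament, had 2.37, 0.657, 1.75 and 2.99 CPM in db/db replicates 1 to 4, against 14.5, 2.06, 15.9 and 1.57 CPM in db/m replicates 1 to 4. Db/m replicates 2 and 4 lay among the db/db libraries, and replicates 1 and 3 far above them. Fitted over 8 libraries, the log2 fold change was -2.14 (SE 0.76, adjusted p = 0.322 by edgeR), and it was 0.08 (95% interval -1.02 to 1.18) in 6. Col14a1 had 12.8 to 25.9 CPM in db/db and 52.4, 13.3, 104 and 14.96 CPM in db/m replicates 1 to 4, and its log2 fold change of -1.26 (SE 0.59) became 0.45. Comp, a cartilage and tendon matrix protein that binds fibrils, had 0.640 to 1.47 CPM in db/db and 50.3, 0.540, 32.01 and 0.950 CPM in db/m replicates 1 to 4, high in the same libraries. It is 1 of 8 valve, tendon and cartilage markers, and for 5 of the 8 both db/m replicates 1 and 3 were above the other 6 libraries (15% of all genes). Of 5 tested in 8 libraries, 4 had a log2 fold change below 0 and 1 above, from -4.39 to 0.88. Among those 5, 1 was separated with db/db higher (5.04% of all genes) and 0 with db/db lower (4.61%). Col16a1 had -0.38 and 0.39 in 8 and 6 libraries. Col20a1 had -0.10 and -0.08 and is uncertain, because 79 of its exon bases are shared with a same-strand transcript that holds 1163 counts against its own 337.

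Network-forming type VIII collagen lines vessels and heart valves. Col8a1 had 45.4, 74.0, 54.7 and 47.8 CPM in db/db replicates 1 to 4, against 79.5, 54.7, 54.5 and 56.7 CPM in db/m replicates 1 to 4. The groups overlapped, and only db/m replicate 1 stood above its group. Col8a2, its partner chain, was low, with 1.89, 1.595, 0.230 and 1.71 CPM in db/db replicates 1 to 4, against 12.9, 0.393, 7.32 and 0.665 CPM in db/m replicates 1 to 4. Its log2 fold change was -1.98 (SE 0.98) in 8 libraries and 1.33 (95% interval -0.28 to 2.94) in 6.

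The transmembrane collagens Col13a1, Col23a1 and Col25a1, which span the cell membrane, had log2 fold changes of -0.42, -0.85 and -0.78 in 8 libraries and -0.30, 0.60 and 0.03 in 6, with overlapping groups in both. Col28a1, known from peripheral nerve, had 3.18, 4.27, 2.49 and 3.31 CPM in db/db replicates 1 to 4, against 2.64, 0.933, 3.68 and 2.19 CPM in db/m replicates 1 to 4. The groups overlapped through db/m replicates 1 and 3. Its fold change on the log2 scale was 0.48 (SE 0.38) in 8 libraries and 1.075 (95% interval 0.22 to 1.94, adjusted p = 0.335 by edgeR) in 6. The 5 Schwann cell markers summed to 21.4 to 31.1 CPM in db/db and 17.04 to 42.5 CPM in db/m, with no marker at 0.

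Of the 14 collagens below the filter, Col6a4 and Col19a1 had 0 counts in all 8 libraries, and a count of 0 allows up to 3 counts per library. Col11a1, a cartilage fibril chain, had 0 counts in all 4 db/db libraries, against 25, 0, 14 and 0 counts in db/m replicates 1 to 4. Col6a5 had 11, 8, 6 and 0 counts in db/db replicates 1 to 4, against 11, 1, 75 and 2 in db/m replicates 1 to 4. The rest had at most 11 counts in any library: Col2a1, Col7a1, Col9a1, Col9a2, Col9a3, Col10a1, Col17a1, Col22a1, Col24a1 and Col26a1, the last of which passed the filter in 6 libraries. These are chains of cartilage, skin and other tissues and were not detectable as different at this depth.

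Ratios between chains, taken per length within a library, do not depend on library scaling. Of 12 ratios computed after the gene values were seen, 5 did not overlap between groups in 8 libraries and 7 did not in 6, all 5 of the first with db/db lower; over all 435 pairs of tested collagens, 7.82% did not overlap in 8 libraries and 29.9% in 6. The ratios share genes, so they are not independent, and they are a description with no test. Col3a1 over Col1a1 was 1.103, 0.862, 0.983 and 1.01 in db/db replicates 1 to 4, against 1.21, 1.30, 1.14 and 1.12 in db/m replicates 1 to 4. Every db/db library was below every db/m library, including db/m replicates 1 and 3, where both genes were high.

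Col3a1 over Col1a2 averaged 1.41 ± 0.222 in db/db and 1.87 ± 0.104 in db/m (SD, n = 4 each), and Col1a1 over Col1a2 averaged 1.42 ± 0.0906 in db/db and 1.57 ± 0.107 in db/m with overlapping groups. Col4a1 over Col4a2 was 1.001, 1.03, 0.877 and 0.955 in db/db replicates 1 to 4, against 1.25, 1.102, 1.27 and 1.14 in db/m replicates 1 to 4. The groups were separated. Both genes start within the same stretch of sequence printed above, and its part in their levels was not tested. Col5a2 over Col5a1 was 0.321 to 0.424 in db/db and 0.437 to 0.635 in db/m, and Col6a3 over Col6a1 was 0.189 to 0.216 in db/db and 0.225 to 0.385 in db/m. Col6a1 over Col6a2 overlapped, with 1.77 ± 0.176 in db/db and 1.71 ± 0.0238 in db/m. A difference in length trend between libraries also enters a ratio of genes of unequal length, and its part was not tested.

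**Figure D4:**
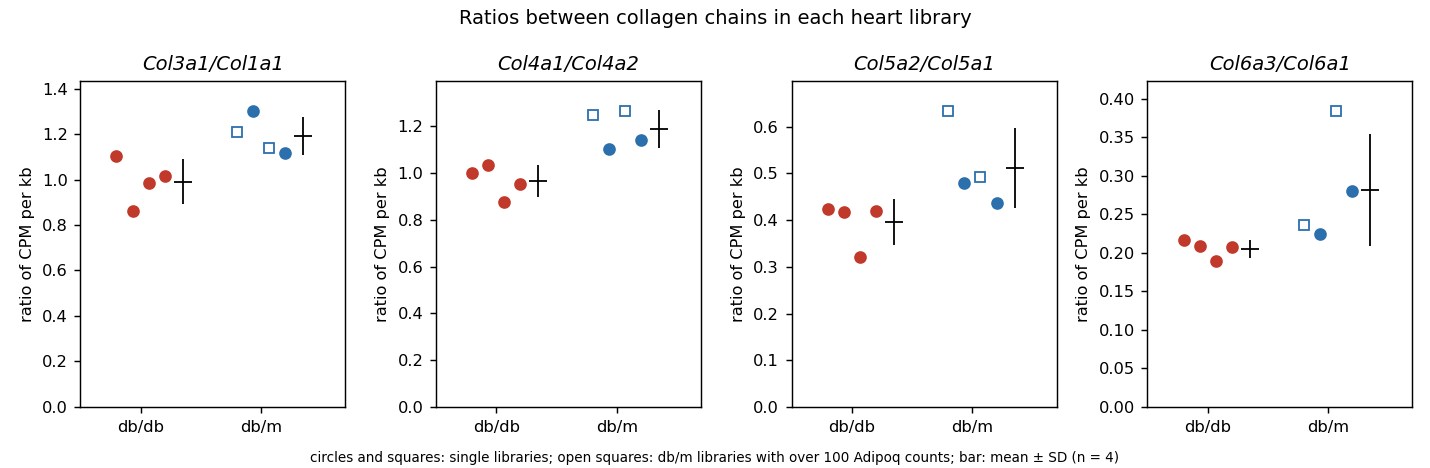
Ratio of CPM per kb between 2 collagen chains in each library (points, db/db left of db/m), with mean and SD of 4 libraries and open squares for db/m replicates 1 and 3. In all 4 panels the db/db points lie below the db/m points, as for Col4a1 over Col4a2 with 0.877 to 1.03 in db/db and 1.102 to 1.27 in db/m.

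Genes that make, modify, bind or regulate collagen were counted in 5 lists. The shares of all genes to set beside these counts are as follows. In 8 libraries, 5.12% were higher and 7.84% lower at an unadjusted p under 0.05. There edgeR called 0.00574%, DESeq2 2.17% and limma-voom 0.58%. In 6 libraries, 5.63% were higher and 5.04% lower at an unadjusted p under 0.05, and edgeR called 0.256%, DESeq2 1.87% and limma-voom 0.49%. Of 31 tested genes of biosynthesis and crosslinking, edgeR called 0 in 8 libraries, DESeq2 2 and limma-voom 1. In 6 libraries, edgeR called 0, DESeq2 3 and limma-voom 1. At an unadjusted p under 0.05, 2 were higher and 7 lower in db/db in 8 libraries, against 3 higher and 3 lower in 6 libraries. Serpinh1, the collagen chaperone HSP47 of the endoplasmic reticulum, had 189, 235, 181 and 239 CPM in db/db replicates 1 to 4, against 386, 331, 283 and 344 CPM in db/m replicates 1 to 4. No db/db library reached any db/m library. The log2 fold change was -0.67 (SE 0.15) with an adjusted p of 0.170 by edgeR, 0.00381 by DESeq2 and 0.0221 by limma-voom. Without db/m replicates 1 and 3 it was -0.68, with an adjusted p of 0.0568 by edgeR, 0.00031 by DESeq2 and 0.041 by limma-voom.

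P3h4, which works with prolyl and lysyl hydroxylases on nascent chains, had 48.8, 53.9, 40.1 and 50.2 CPM in db/db replicates 1 to 4, against 38.6, 31.6, 32.4 and 31.97 CPM in db/m replicates 1 to 4. It was separated in the other direction from Serpinh1. It had a log2 fold change of 0.52 (SE 0.13) with an adjusted p of 0.219 by edgeR, 0.0210 by DESeq2 and 0.0652 by limma-voom. Crtap, a subunit of the prolyl 3-hydroxylase complex, was separated with db/db lower, at 38.9 to 42.6 CPM in db/db and 44.7 to 60.4 CPM in db/m, and its log2 fold change was -0.39 (adjusted p = 0.297 by edgeR). P4ha1, a subunit of prolyl 4-hydroxylase, had -0.54 (adjusted p = 0.294), and Plod1, P4hb and Loxl1 had -0.20, -0.17 and -0.30 with overlapping groups.

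Among 16 tested basement membrane partners (laminins, perlecan and others), edgeR, DESeq2 and limma-voom called 0, with 1 lower and 0 higher at an unadjusted p under 0.05, and 0 lower and 1 higher in 6 libraries. The median log2 fold change of this list was -0.14, beside -0.75 for the 6 type IV chains. Hspg2, perlecan, and Lamc1, a laminin chain of most basement membranes, had -0.14 and -0.26, and Sparc, a collagen-binding protein, had -0.06. In 6 libraries the list's median was -0.04 and that of the type IV chains -0.24.

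Of 19 fibril-associated matrix genes, edgeR and DESeq2 called 0 in 8 libraries and limma-voom 1, with 1 higher and 6 lower at an unadjusted p under 0.05. In 6 libraries the balance was the other way, with 5 higher and 1 lower, and the median log2 fold change was 0.17, against -0.50 in 8. There edgeR called 1 of the 19, DESeq2 3 and limma-voom 1. Thbs2, thrombospondin 2, which takes part in fibril assembly, had 60.3, 76.2, 74.2 and 60.1 CPM in db/db replicates 1 to 4, against 46.8, 30.7, 64.3 and 40.6 CPM in db/m replicates 1 to 4. Db/m replicate 3 was the one db/m library within the db/db range. Its log2 fold change was 0.57 (SE 0.21, adjusted p = 0.331 by edgeR, 0.0420 by limma-voom) in 8 libraries. In 6 libraries it rose in db/db by 0.92 (adjusted p = 0.0384 by edgeR, 0.256% of all genes called), but it did not pass when db/m replicate 2 (0.74, adjusted p = 0.488 by edgeR) or db/m replicate 4 (1.14, adjusted p = 0.0926 by edgeR) was also left out. Those fits have a single db/m library, which is assumed to vary like the db/db libraries. Fbn1, the microfibril protein fibrillin, was separated with db/db lower, at 93.2 to 98.5 CPM in db/db and 111 to 180 CPM in db/m. Vcan, Prelp, Bgn, Tnxb and Dcn, which coat or space fibrils, had log2 fold changes of -1.19, -0.89, -0.42, -0.55 and -0.17 in 8 libraries and -0.35, -0.10, 0.30, 0.02 and 0.17 in 6.

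For 9 tested collagen receptors, all 3 tools called 0, with 1 lower and 0 higher at an unadjusted p under 0.05 in 8 libraries. In 6 libraries, where 10 were tested, 1 was higher and 0 lower. Ddr2, a receptor kinase for fibrillar collagen, was separated with db/db lower, at 53.2 to 65.1 CPM in db/db and 66.6 to 160 CPM in db/m, and a log2 fold change of -0.65 (adjusted p = 0.354 by edgeR) in 8 libraries and -0.15 in 6. Itgb1 and Itga1, the chains of a type IV collagen integrin, had -0.14 and -0.27 with overlapping groups.

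Of the 16 genes of TGF-beta signalling reported here, a pathway known to induce collagen genes, edgeR and limma-voom called 0 in 8 libraries and DESeq2 2 (Smad3 and Ltbp4, lower in db/db), with 6 lower and 0 higher at an unadjusted p under 0.05. In 6 libraries 3 were lower and 2 higher, and the median log2 fold change was -0.01, against -0.49 in 8. There edgeR and limma-voom called 0 and DESeq2 called 1, Smad7. Ltbp4, which stores the ligand in the matrix, had 455, 499.5, 459.6 and 510.4 CPM in db/db replicates 1 to 4, against 950.5, 563, 1044 and 659 CPM in db/m replicates 1 to 4. Every db/db library was below every db/m library, and db/m replicates 1 and 3 were the highest. On the log2 scale the fold change was -0.74 (SE 0.20) with an adjusted p of 0.245 by edgeR, 0.0306 by DESeq2 and 0.123 by limma-voom, and -0.35 (adjusted p = 0.252 by edgeR) in 6 libraries.

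Smad3, which carries the signal to the nucleus, and Smad7, its feedback inhibitor, were also separated with db/db lower. Their log2 fold changes were -0.62 and -0.64 in 8 libraries, with adjusted p of 0.238 and 0.245 by edgeR, and -0.34 and -0.70 in 6. In the 6 libraries their adjusted p was 0.271 and 0.0182 by DESeq2. Ccn2, connective tissue growth factor, had 96.1 to 221 CPM in db/db and 329, 74.6, 346 and 87.6 CPM in db/m replicates 1 to 4, so that its log2 fold change of -0.55 became 0.81 without db/m replicates 1 and 3.

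**Figure D5:**
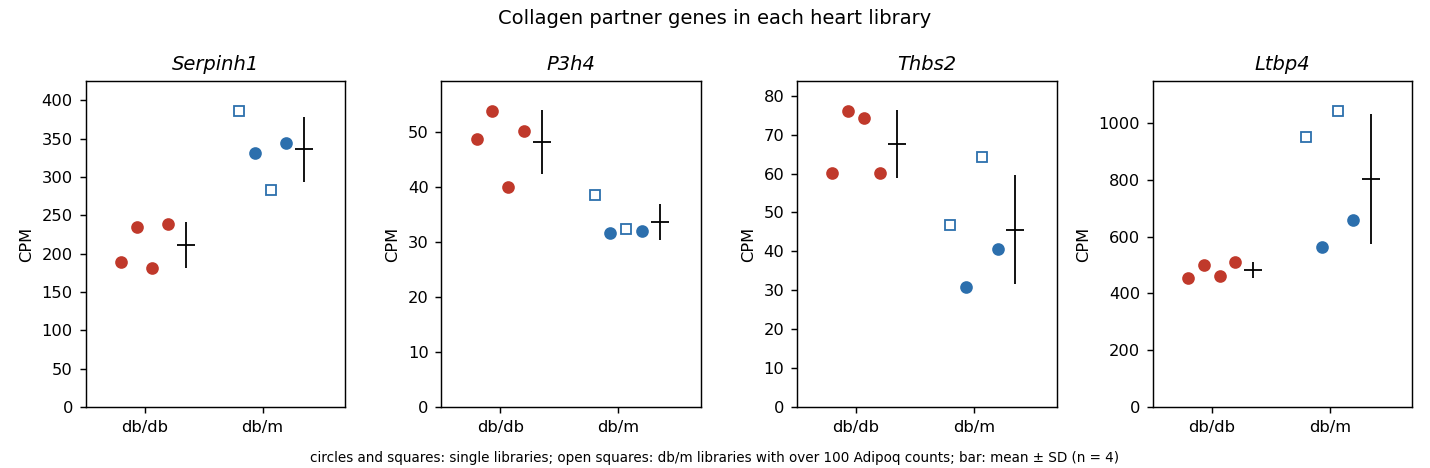
CPM of 4 collagen partner genes in each library (points, db/db left of db/m), with the mean and SD of 4 libraries and open squares for db/m replicates 1 and 3. Serpinh1 and Ltbp4 are lower in all db/db libraries (Serpinh1 at most 239 CPM against at least 283 CPM in db/m), and P3h4 is higher in all of them.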

How the data were processed

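Mouse heart RNA was sequenced in 4 db/db and 4 db/m libraries made with the NEBNext Ultra kit from 3 µg of RNA, per the labels. The authors deposited raw read counts for each Ensembl gene, and the 8 single-sample files equalled the table of the series. Per the submitters' processing notes the build was mm10. The aligner, the read counter, its strand setting and the annotation release were not given in the sources used here, so overlapping genes are uncertain. Symbols came from GENCODE M21, which held 55480 of 55573 identifiers. Rows that name no gene numbered 0.

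Counts were filtered with filterByExpr (minimum count 10, minimum total 15), which left 17411 genes, scaled by TMM and tested two-sided by the robust quasi-likelihood F test of edgeR 4.0.16 in R 4.3.3, with genotype as the single factor and Benjamini-Hochberg adjustment over all tested genes at 0.05. The procedure was tested on simulated counts. CPM uses scaled library sizes, and CPM per kb divides by the deposited length. Db/m libraries with over 100 Adipoq counts (replicates 1 and 3) were left out in the second fit. DESeq2 1.42.0, limma-voom (limma 3.58.1) with sample weights, RLE scaling, other filters, protein-coding genes alone, a replicate block and leaving out each library were alternatives; removal of each library's length trend, and DESeq2 and limma-voom without those db/m libraries, were added after seeing the data. Named partners are the 4 with the smallest p and the 4 with the highest mean CPM of each list; not all are printed, and 1 gene of the TGF-beta list is not reported here. Genes given as marker values, and the ratios, were chosen after their values were seen. The collagens and all lists were chosen with earlier results of these data known. The limit given for a count of 0 covers counting error only.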

Additional observations from a re-analysis of the deposited data

Results flagged for a closer look

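In 60 groups of 4 libraries (30 tested collagens in each genotype), 4 had a library whose gap to its nearest neighbour took more of the group's range than Dixon's 95% critical value, which chance exceeds in about 1 in 20 groups. Col27a1 in db/db replicate 1 was 4.74 CPM, below the other db/db libraries at 7.13 to 7.32 CPM. Col4a3 and Col18a1 in db/m replicate 3 were 14.0 and 76.0 CPM, above the other db/m libraries at 3.63 to 5.32 and 10.7 to 21.2 CPM. Col8a1 in db/m replicate 1 was 79.5 CPM, above the other db/m libraries at 54.5 to 56.7 CPM.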

How the results depend on the processing

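The count of collagens called was 0 under every setting run except DESeq2 on 8 libraries, which called 1. The count over all genes, 1 as reported, was 27 with no filter, 377 with DESeq2, 101 with limma-voom, 46 without db/m replicates 1 and 3 (336 by DESeq2 and 88 by limma-voom), 12 with the length trend removed, and 0 to 106 when single libraries were left out. Deviations from the group mean of libraries with the same replicate number correlated at -0.09, 0.06, 0.03 and 0.02. The labels do not say what the replicate numbers mark. The replicate block called 5 genes and 0 collagens and gave Col27a1 0.073.

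Medians that moved beyond the spread were those of basement membrane chains with limma-voom (-0.26) and, without db/m replicates 1 and 3, all 3 classes (0.029 fibrillar, -0.064 basement membrane, 0.17 other). With single libraries left out, medians ran from -0.74 to -0.27 for fibrillar, -0.86 to -0.30 for basement membrane and -0.64 to -0.18 for other collagens. Log2 fold changes that turned from negative to positive without db/m replicates 1 and 3 were Col1a1 0.064, Col1a2 0.24, Col5a1 0.054, Col27a1 0.85, Col4a6 0.35, Col15a1 0.052, Col18a1 0.056, Col6a1 0.17, Col6a2 0.14, Col6a6 0.17, Col8a2 1.33, Col12a1 0.084, Col14a1 0.45, Col16a1 0.39, Col23a1 0.60 and Col25a1 0.025. With limma-voom they were Col23a1 0.069, Col27a1 0.42, Col6a1 0.014 and Col6a6 0.023. With the length trend removed Col27a1 was 0.17, and with at least 1 CPM in 4 libraries Col4a5 was -0.003. With single libraries left out, Col27a1 ran from -0.36 to 0.27, Col20a1 from -0.51 to 0.065, Col4a5 from -0.12 to 0.25, Col6a6 from -0.64 to 0.030 and Col8a1 from -0.31 to 0.009. The cause was not tested.

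With 4 libraries a group, or 4 db/db against 2 db/m after the exclusion, differences of collagens at a few CPM are limited by their spread.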
